A study of Mus musculus with 9 samples.

Results

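Matrix metalloproteinases are zinc-dependent enzymes that are made as inactive pro-forms and, once activated, cut collagen, elastin, gelatin and many other proteins outside the cell. Mmp13 and Mmp8 encode interstitial collagenases, Mmp9 encodes gelatinase B, Mmp12 encodes the macrophage elastase, and Mmp14 encodes a membrane-anchored enzyme that cuts collagen at the cell surface and activates other pro-enzymes. Timp2 encodes a secreted tissue inhibitor that blocks these enzymes and also helps Mmp14 to activate pro-Mmp2, and Adamdec1 encodes a secreted disintegrin-type metalloproteinase known from gut macrophages and fibroblasts. These 7 genes were followed here, of 31053 genes in the count tables. All 7 were found by symbol in the tables. They were picked because earlier results on the same libraries had shown Mmp13 in resident macrophages and Mmp9 in resident macrophages of the small intestine, so their levels across cell classes, and between small intestine and colon, are a description with no test.

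The study made 9 single-cell libraries from the lamina propria of male C57BL/6 mice aged 7 to 8 weeks, sorted for CD11b, an integrin chain of myeloid cells. There were 2 libraries of germ-free (GF) colon, 1 of colon after pan-antibiotics (ampicillin at 1 g/L, vancomycin at 0.5 g/L, neomycin at 1 g/L and metronidazole at 1 g/L in the drinking water for a week or longer), 1 of colon of Nlrc4-deficient mice given dextran sodium sulfate (DSS), 1 of colon of SPF mice given DSS, 2 of small intestine of mice labelled normal, and 2 of colon of untreated specific pathogen free (SPF) mice. The labels give 2.5% DSS for 7 days as the standard course, which injures the colonic epithelium. All animals other than the Nlrc4-deficient ones carried no labelled allele, and neither the number of mice behind a library nor the separate origin of replicate libraries is given in the labels. The libraries held 12822606 to 62900949 unique molecular identifiers (UMIs, counted RNA molecules) in 1450 to 6698 kept cells, and at most 18 cell barcodes were shared by any pair of libraries. Nlrc4 had 1254 UMIs in the library labelled Nlrc4 deficient, where its level of 19.9 CPM (counts per 1000000 UMIs) was the highest of the 9, and it is not known here whether these 3' reads lie outside the deleted part. In SPF colon 2, 30 cells had at least 2 Xist UMIs and no UMI of a Y-linked gene, against 0 to 3 cells in each other library, although the labels give male mice.

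Cells were placed in 15 classes by marker genes, none of them a member, and 31759 cells were kept. Of these, 2861 were resident macrophage-like (C1qa, Csf1r, Adgre1 and Cx3cr1 among the markers), 3010 monocyte-like, 1639 neutrophil-like, 525 eosinophil-like, 2550 type 2 dendritic cell-like and 947 fibroblast-like. B cell-like, T cell-like and fibroblast-like cells, which as a rule lack CD11b, were present in every library, so the sort was not pure. The eosinophil-like class rested on 5 markers, since Epx had no UMI, and its median cell held 0.259 of the UMIs of its own library's median cell. Resident macrophage-like cells numbered 204 and 116 in GF colon, 101 after antibiotics, 432 in Nlrc4-deficient DSS colon, 316 in DSS colon, 285 and 929 in small intestine, and 378 and 100 in SPF colon. Levels are given as CPM relative to all UMIs of the same class and library, with exact 95% Poisson intervals that cover counting error only. The tables count 3' ends, so levels are compared between classes and libraries for 1 gene, not between genes.

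Mmp13, Mmp12 and Mmp8 are neighbours. In the GENCODE annotation of mouse build GRCm38, the build the study mapped to as mm10, Mmp13 (ENSMUSG00000050578) lies on chromosome 9 from 7272514 to 7283331, Mmp12 (ENSMUSG00000049723) from 7344381 to 7369499 and Mmp8 (ENSMUSG00000005800) from 7558456 to 7568485, all on the plus strand. They belong to a run of 9 Mmp genes that spans 427072 bases, of which 6 had at least 100 UMIs over all kept cells. Over all kept cells, resident macrophage-like cells held 76.2% of the 14484 Mmp13 UMIs, type 2 dendritic cell-like cells held 29.1% and resident macrophage-like cells 24.6% of the 19795 Mmp12 UMIs, and neutrophil-like cells held 44.3% and monocyte-like cells 42.2% of the 4268 Mmp8 UMIs. Small intestine 2 alone gave 2796 of the 5757 Mmp12 UMIs in type 2 dendritic cell-like cells, and in 6 of 9 libraries resident macrophage-like cells held more Mmp12 UMIs than type 2 dendritic cell-like cells did. Nlrc4-deficient DSS colon and DSS colon gave 1096 and 497 of the 1801 Mmp8 UMIs in monocyte-like cells. They held 1711 and 610 of the 3010 monocyte-like cells. In neutrophil-like cells they gave 423 and 1067 of the 1892 Mmp8 UMIs. Of the others in the run, Mmp7 (matrilysin, known from Paneth cells) had 86.6% of its 1470 UMIs in epithelial cell-like cells and Mmp3 (stromelysin 1) had 90.5% of its 295 UMIs in fibroblast-like cells. Resident macrophage-like cells held 0 of the Mmp7 UMIs and 4 of the Mmp3 UMIs. The remaining members lie apart from this run: Mmp9 (ENSMUSG00000017737) on chromosome 2 from 164940780 to 164955850, Mmp14 (ENSMUSG00000000957) on chromosome 14 from 54431612 to 54445364, Adamdec1 (ENSMUSG00000022057) on the minus strand of chromosome 14 from 68563380 to 68582095, and Timp2 (ENSMUSG00000017466) on the minus strand of chromosome 11 from 118301069 to 118355740.

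The 250 bases before the start of the 3 chromosome 9 members are shown because the results turn on these close neighbours, of which Mmp13 and Mmp12 were read in resident macrophage-like cells and Mmp8 in neutrophil-like and monocyte-like cells. RefSeq starts of build GRCm38.p6 were matched for 5 of the 7 members. Capitals mark the AP-1 motif TGANTCA, searched on both strands, and the TATA box motif TATAAA, searched on the gene's strand. The windows run 5′ to 3′ on the plus strand, at chr9:7272264-7272513 for Mmp13, chr9:7347124-7347373 for the downstream of the 2 Mmp12 starts in RefSeq, and chr9:7558179-7558428 for Mmp8.
Mmp13: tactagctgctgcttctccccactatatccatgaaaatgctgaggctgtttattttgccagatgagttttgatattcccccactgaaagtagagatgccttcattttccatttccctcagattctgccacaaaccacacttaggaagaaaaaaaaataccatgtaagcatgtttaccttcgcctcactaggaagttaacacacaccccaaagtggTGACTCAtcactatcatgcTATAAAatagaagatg
Mmp12: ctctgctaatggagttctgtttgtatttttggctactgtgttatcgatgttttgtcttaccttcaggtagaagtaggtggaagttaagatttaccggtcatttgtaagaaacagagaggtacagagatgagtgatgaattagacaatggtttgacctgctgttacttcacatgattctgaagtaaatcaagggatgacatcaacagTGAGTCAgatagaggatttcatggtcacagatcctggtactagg
Mmp8: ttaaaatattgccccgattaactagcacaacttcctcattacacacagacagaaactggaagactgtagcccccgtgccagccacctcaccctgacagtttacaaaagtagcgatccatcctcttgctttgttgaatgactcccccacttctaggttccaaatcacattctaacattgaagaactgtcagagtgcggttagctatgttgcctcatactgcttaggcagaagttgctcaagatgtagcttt
The Mmp13 window held 1 AP-1 motif, whose first base is 35 bases before the start, and 1 TATA box that begins 16 bases before it. The Mmp12 window held 1 AP-1 motif, 44 bases before the downstream start, and the Mmp8 window held neither motif. This Mmp12 window lies inside the annotated gene, which begins at 7344381. The window of the upstream Mmp12 start, chr9:7344147-7344396, reaches the annotated beginning of the gene and held neither motif. Neither motif was found in the windows of Mmp14 or of Timp2. In all 32851 RefSeq windows of this length, 6.75% held the AP-1 motif and 7.59% the TATA box. A match is a run of letters and not a measured binding site.

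Mmp13 separated resident macrophage-like cells from every other class. Over the 9 libraries its level in these cells ran from 179.8 to 2309 CPM, with a median of 639.6, and the highest value in any other class was 74.9, from 9 UMIs in 18 fibroblast-like cells of small intestine 1. Unassigned cells reached 67.6. In monocyte-like cells the median was 5.72. The level was 927 and 639.6 CPM in GF colon, 1650.4 after antibiotics, 335 in Nlrc4-deficient DSS colon, 188 in DSS colon, 1088 and 562 in small intestine, and 179.8 and 2309 in SPF colon. The 2 SPF colon libraries were therefore the lowest and the highest of all 9, and their intervals, 163 to 198 and 2211 to 2409.9, were far apart. The GF colon and small intestine libraries all lay between them.

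The SPF colon libraries differed both in the share of Mmp13-positive cells and in the UMIs of the richest cell. Mmp13 was detected in 20.6% of these cells in SPF colon 1 and in 49.0% in SPF colon 2, and the richest cell held 75 and 230 UMIs. Mmp13 was concentrated in few cells in every library: the tenth of cells with most UMIs held 58.4% of them in small intestine 1 at the least and 96.5% in DSS colon at the most. Beside this, the summed monocyte markers in resident macrophage-like cells were at 1542 CPM in SPF colon 1 and 497 in SPF colon 2, with 8 of 8 markers detected in both. Across the 9 libraries these markers ran from 445 to 2119 CPM, and their part in the Mmp13 level was not tested. The 30 Xist-positive cells of SPF colon 2 are a further difference between the libraries whose part was not tested.

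Over all libraries 36.7% of 2861 resident macrophage-like cells had an Mmp13 UMI, against 1.11% of 4305 B cell-like cells, whose share is taken as the background of free RNA. The median depth was 4942 and 3295 UMIs per cell. After thinning every cell to 1000 UMIs, which left out 235 and 65 shallower cells, the shares were 23.1% and 0.259%. Monocyte-like cells stood at 2.60% after thinning, type 2 dendritic cell-like cells at 0.67% and neutrophil-like cells at 0.354%. Most monocyte UMIs of Mmp13 came from 1 library, since Nlrc4-deficient DSS colon held 1148 of 1201. There the level was 67.2 CPM (95% interval 63.4 to 71.2), against 6.42 (4.2 to 9.41) in DSS colon. In that library 1711 cells were monocyte-like, and the 172 of them with most Mmp13 UMIs held 98.8% of these UMIs. Resident macrophage markers summed to 1285 CPM over all 1711, against 1816 in the 610 monocyte-like cells of DSS colon. The part of macrophage-like cells inside this class in its Mmp13 level was not tested.

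**Figure D1:**
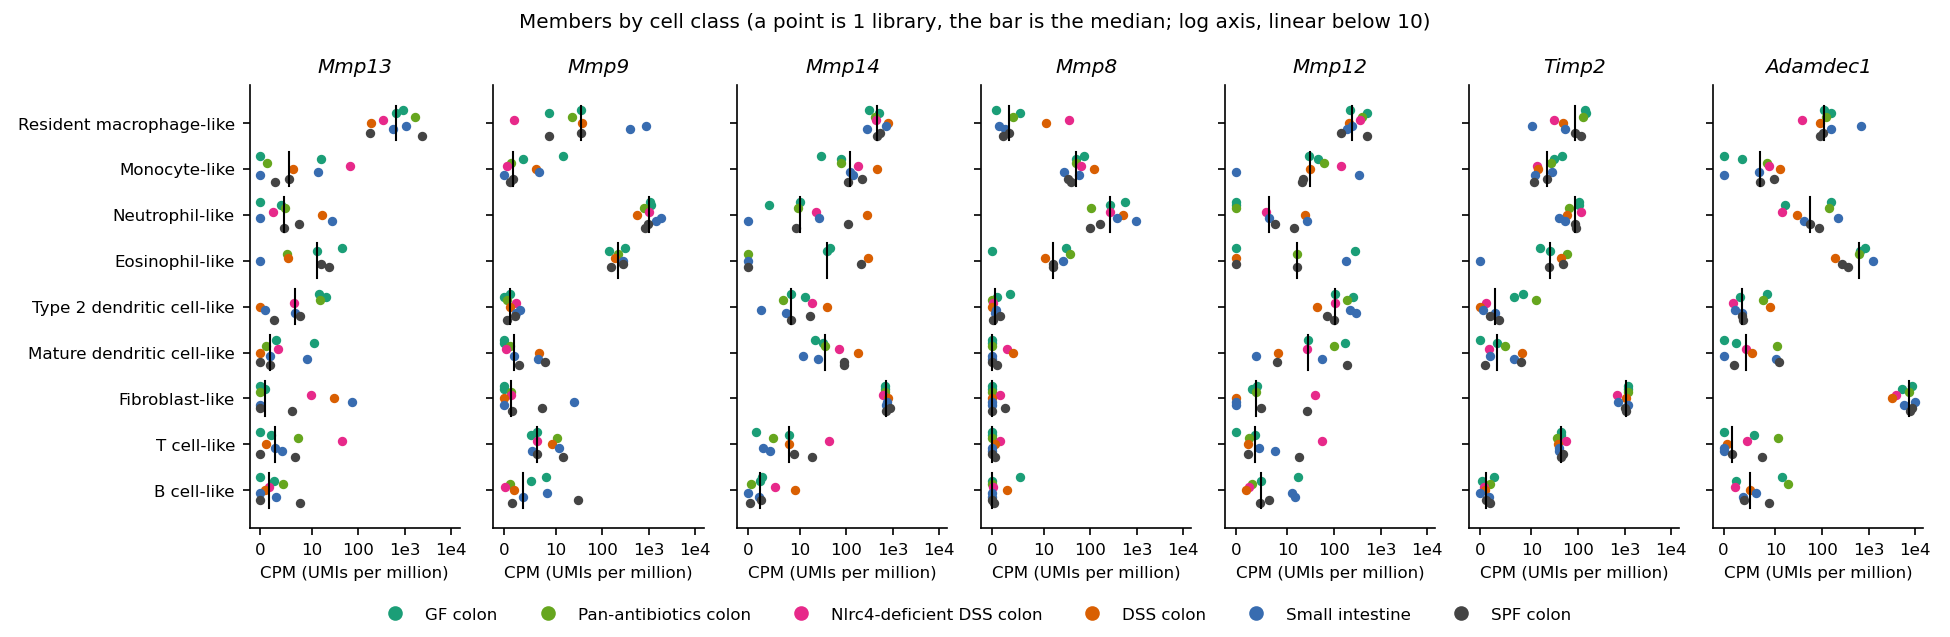
CPM of each member (x axis, log scale that is linear below 10) in 9 cell classes (rows), with 1 point per library coloured by group and a bar at the median of libraries with at least 10 cells of the class. Mmp13 is above 179 in every resident macrophage-like point and at most 67.2 in the other classes drawn other than fibroblast-like cells, where 1 small intestine library of 18 cells reaches 74.9.

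Mmp9, known best as a granule enzyme of neutrophils, was highest in neutrophil-like cells in all 9 libraries. Its level there was 1071 and 1112 CPM in GF colon, 772 after antibiotics, 1004 in Nlrc4-deficient DSS colon, 554 in DSS colon, 1829 and 1460.0 in small intestine, and 953 and 814 in SPF colon. The lowest of these was above the highest eosinophil-like value, 315. In resident macrophage-like cells the small intestine stood apart: 852 (95% interval 807 to 899.9) and 398 (379 to 417) CPM in small intestine, against 34.9 (27.8 to 43.2) and 8.79 (3.8 to 17.3) in SPF colon. The other 5 colon libraries ran from 2.05 to 36.4. Mmp9 was detected in 55.4% and 37.5% of these cells in small intestine, against 7.94% and 3.0% in SPF colon. Both small intestine libraries were above both SPF colon libraries, which was so for 24.7% of the 9586 genes with at least 30 UMIs, and the rule that chose Mmp9 used this contrast.

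Of 8 neutrophil markers, 7 were detected in the resident macrophage-like cells of each small intestine library, and they summed to 117 and 113 CPM there, against 276 with 7 detected and 65.9 with 4 detected in SPF colon. The part of neutrophil RNA in this Mmp9 was not tested. Within the small intestine Mmp9 was found both in cells with Mmp13 and in cells without it. After thinning to 1000 UMIs, Mmp9 was detected in 40.6% of 101 Mmp13-positive and 34.6% of 156 Mmp13-negative resident macrophage-like cells of small intestine 1, and in 28.6% of 234 and 20.1% of 643 in small intestine 2. Over the 9 libraries this share was larger in Mmp13-positive cells in 5. In eosinophil-like cells Mmp9 had a median of 215 CPM over 7 libraries, with a UMI in 16.9% of 350 cells after thinning. Neutrophil markers summed to 2772 to 9262 CPM in eosinophil-like cells, against 30148 to 126570.0 in neutrophil-like cells. The part of free neutrophil RNA in this Mmp9 was not tested.

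Mmp14 was spread over stromal and myeloid cells. Its median level was 711 CPM in fibroblast-like cells (range 619 to 863), 463 in resident macrophage-like cells (286 to 812) and 122 in monocyte-like cells (29.6 to 458). Endothelial cell-like cells, at 19.0 to 462.7, came between the last 2 by median. The ranges of neighbours in this order overlapped. In resident macrophage-like cells it was 308 and 518 CPM in GF colon, 426 after antibiotics, 429.7 in Nlrc4-deficient DSS colon, 812 in DSS colon, 712 and 286 in small intestine, and 522 and 463 in SPF colon. DSS colon was the highest, with an interval of 769 to 856, and small intestine 2 the lowest. In monocyte-like cells it was 182 CPM in Nlrc4-deficient DSS colon (176 to 189), 458 in DSS colon (438 to 479.8), and 217 and 108 in SPF colon. Over all libraries 62.9% of resident macrophage-like cells had an Mmp14 UMI, the largest share of the 7 members. In neutrophil-like cells DSS colon held 609 of its UMIs, at 285 CPM, against 0 to 109 in the other 8 libraries. The monocyte markers in neutrophil-like cells were also highest in DSS colon, at 2592 CPM against 402 to 1817 in the others, and their part was not tested.

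Mmp12, the macrophage elastase, was highest by median in resident macrophage-like and then type 2 dendritic cell-like cells. Over all libraries, unassigned cells held a further 22.8% and monocyte-like cells 13.6% of the Mmp12 UMIs. In resident macrophage-like cells it was 219 and 500.5 CPM in GF colon, 408 after antibiotics, 362 in Nlrc4-deficient DSS colon, 206 in DSS colon, 238 and 193 in small intestine, and 139.9 and 513 in SPF colon. As for Mmp13, the SPF colon libraries were the lowest and the highest. In type 2 dendritic cell-like cells it was 105 and 253 CPM in GF colon, 193 after antibiotics, 107 in Nlrc4-deficient DSS colon, 43.4 in DSS colon, 215 and 290.2 in small intestine, and 72.1 and 100.1 in SPF colon. There DSS colon was the lowest and small intestine 2 the highest. The Mmp12 UMIs sat in few cells: 24.5% of type 2 dendritic cell-like cells had one, and in SPF colon 1 the tenth of cells with most held all 139. In monocyte-like cells Mmp12 was at 139 CPM in Nlrc4-deficient DSS colon (134 to 145), against 30.6 in DSS colon (25.5 to 36.5). The 345 of small intestine 2 rested on 59 UMIs, 52 of them in 1 cell. Mmp12 also went with Mmp13 within a library. After thinning, Mmp12 was detected in a larger share of Mmp13-positive than of Mmp13-negative resident macrophage-like cells in 9 of 9 libraries, as were 0.634% of the 6786 genes detected in at least 30 cells. The gap was wide in SPF colon 1, with 30.6% of 36 against 5.40% of 315 cells, and narrow in small intestine 1, with 12.9% of 101 against 12.2% of 156 cells. Adamdec1 was detected more often beside Mmp13 in 8 of 9 libraries, which 2.62% of genes reached or passed.

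Mmp8, the neutrophil collagenase, was read in neutrophil-like and monocyte-like cells. In neutrophil-like cells it was 556 and 267 CPM in GF colon, 106 after antibiotics, 274 in Nlrc4-deficient DSS colon, 499.6 in DSS colon, 376 and 964 in small intestine, and 165 and 98.2 in SPF colon. SPF colon 2 and the antibiotics library had the lowest levels, and the numbers of neutrophil-like cells were small, 41 to 540. Mmp8 sat in fewer neutrophil-like cells than Mmp9, in 20.6% against 52.0% of 1413 cells after thinning. In monocyte-like cells it was 64.2 CPM in Nlrc4-deficient DSS colon (60.4 to 68.1), 123 in DSS colon (112 to 134), and 33.8 and 38.8 in SPF colon. Resident macrophage-like cells were at 0.836 to 34.9 CPM.

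Timp2, the inhibitor, was highest by median in fibroblast-like cells, with a median of 1082 CPM and a range of 701 to 1197. Endothelial cell-like cells came next by median and reached 981 CPM, inside that range. In resident macrophage-like cells it was 138 and 145 CPM in GF colon, 126 after antibiotics, 30.8 in Nlrc4-deficient DSS colon, 47.2 in DSS colon, 10.5 and 51.9 in small intestine, and 87.4 and 113 in SPF colon. Every untreated, GF and antibiotics colon library was above the DSS and small intestine libraries, a split that was set after the values were seen and that 0.564% of 10639 genes shared, with 0.649% split the other way. The interval of SPF colon 1, 75.9 to 100.1, did not overlap with that of small intestine 2, 45.4 to 59.0, the highest of the DSS and small intestine libraries. The intervals of small intestine 2 and DSS colon (37.4 to 58.8) overlapped. Both small intestine libraries were below both SPF colon libraries, as were 15.6% of 9586 genes, a contrast that the choice of members used. Fibroblast markers in these cells summed to 6.55 and 8.80 CPM in small intestine and 28.1 and 28.6 in SPF colon, and to 84.3 in Nlrc4-deficient DSS colon. Of 8 fibroblast markers, 4 to 8 were detected per library, and their part in the Timp2 level was not tested. T cell-like cells had a low and even Timp2 level, 35.3 to 54.1 CPM, with a UMI in 4.35% of cells after thinning against 0.118% of B cell-like cells.

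Adamdec1 was highest in fibroblast-like cells in all 9 libraries. In fibroblast-like cells it was 8566 and 5182 CPM in GF colon, 7492 after antibiotics, 3828 in Nlrc4-deficient DSS colon, 3262 in DSS colon, 9825 and 5681 in small intestine, and 8409 and 7719 in SPF colon. Both DSS libraries were below the other 7, as for 4.49% of 10931 genes, with 2.88% above them. The intervals of Nlrc4-deficient DSS colon (3758 to 3898) and DSS colon (3061 to 3473) did not overlap with the lowest of those, 5040 to 5327 in GF colon 2. An Adamdec1 UMI was found in 83.0% of 388 fibroblast-like cells of Nlrc4-deficient DSS colon, in 35.6% of 45 in DSS colon, in 52.4% of 42 and 81.0% of 142 in GF colon, and in 83.8% of 74 and 88.2% of 68 in SPF colon. With 1 library for each DSS condition these differences have no replicate check, and the fibroblast-like cells are those that remained in a CD11b sort.

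By the median over libraries, eosinophil-like cells were the next class for Adamdec1, and their range overlapped with that of resident macrophage-like cells. Endothelial cell-like cells ranked lower by median but ran from 0 to 1437.5 CPM. The level in eosinophil-like cells was 825 and 652 CPM in GF colon, 613 after antibiotics, 188 in DSS colon, 1251 in small intestine 1, and 268 and 369 in SPF colon, with 32 to 125 cells per library. Nlrc4-deficient DSS colon and small intestine 2 held 6 and 7 such cells. Small intestine 1 was the highest, with an Adamdec1 UMI in 71.9% of 32 cells. Fibroblast markers summed to 0 to 78.7 CPM in eosinophil-like cells and to 22400 to 50341 CPM in fibroblast-like cells. The part of free fibroblast RNA in this Adamdec1 was not tested. In resident macrophage-like cells Adamdec1 reached 677 CPM (637 to 719.99) in small intestine 1, against 158 (146 to 169.8) in small intestine 2 and 106 and 89.0 in SPF colon. The fibroblast markers in these cells were at their lowest in small intestine 1, at 6.55 CPM, while Adamdec1 in fibroblast-like cells was highest in that library. The part of fibroblast RNA in this Adamdec1 level was not tested. Nlrc4-deficient DSS colon had the lowest Adamdec1 level in resident macrophage-like cells, 37.2.

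**Figure D2:**
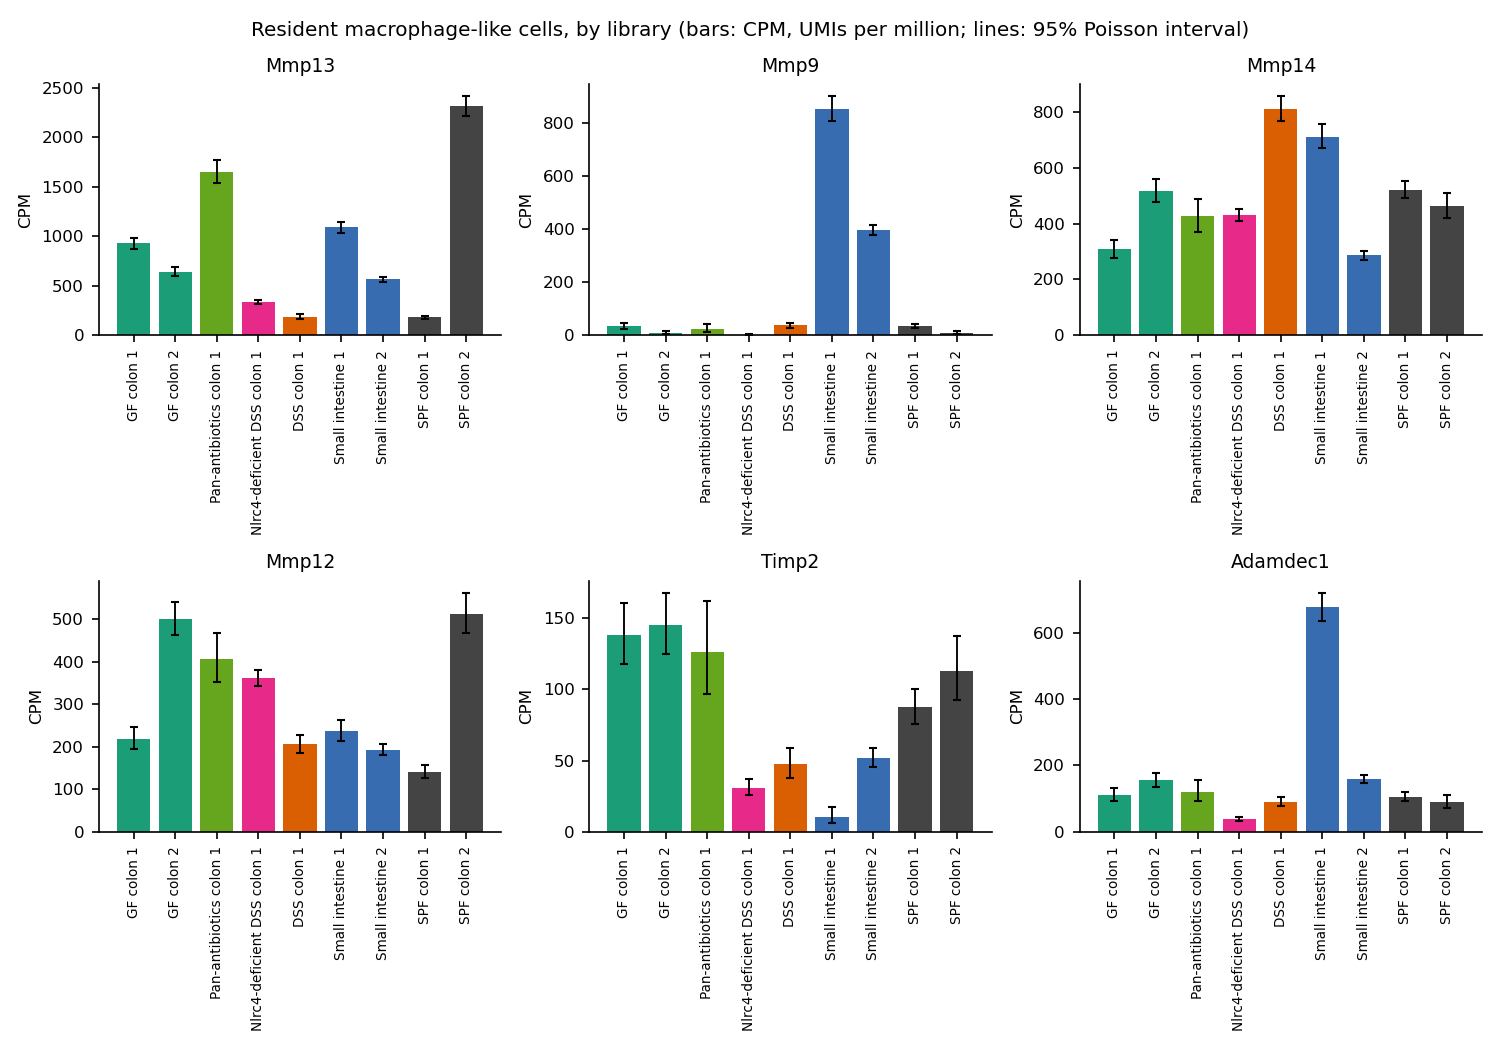
CPM (y axis, from 0) of 6 members in resident macrophage-like cells of each library (x axis), with 95% Poisson intervals as lines. Mmp13 is lowest and highest in the 2 SPF colon libraries (179.8 and 2309), Mmp9 is high only in the small intestine bars (852 and 398), and Timp2 is lowest in small intestine 1 (10.5).

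**Figure D3:**
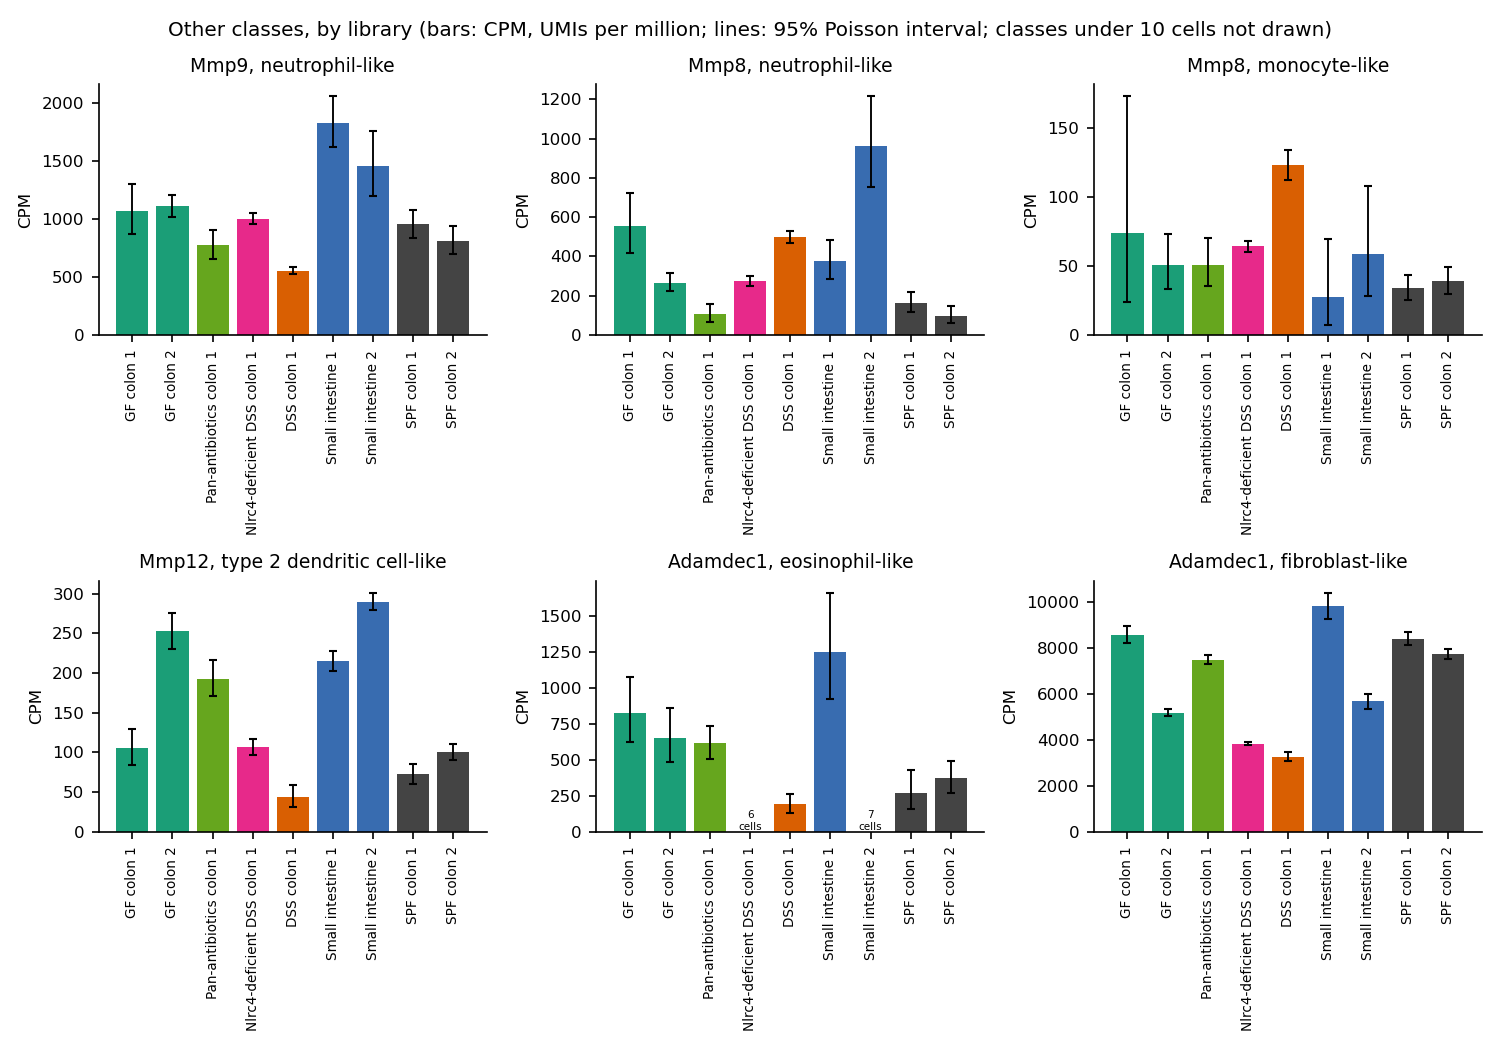
CPM (y axis, from 0) of Mmp9, Mmp8, Mmp12 and Adamdec1 in the other classes named above each panel, by library (x axis), with 95% Poisson intervals as lines and no bar where a class has fewer than 10 cells. Adamdec1 in fibroblast-like cells is lowest in the 2 DSS bars (3828 and 3262), and Mmp8 in neutrophil-like cells is highest in small intestine 2 (964).

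The genes whose pattern was most like that of each member were found by Pearson correlation of log2(CPM + 10) over 109 profiles of 1 class in 1 library, among 8710 genes. Profiles of 1 class share their cell type and profiles of 1 library share its depth, so these values are descriptions. Mmp13 was most like Lilra5 (r = 0.879), Pf4 (0.876), Kcnj10 (0.876), Ms4a14 (0.875) and Gbp2b (0.856). Mmp9 was most like Retnlg (0.879), Adipor1 (0.876), Hdc (0.862), F630028O10Rik (0.859) and G0s2 (0.849), and Mmp8 was most like Trem3 (0.920), Hcar2 (0.908), Hdc (0.90), Sirpb1b (0.899) and Hp (0.887). Retnlg, Hdc and G0s2 are among the neutrophil gate genes. Mmp14 was most like Axl (0.894), Ctsl (0.878), Spon1 (0.870), Itgb5 (0.862) and Nr1h3 (0.852), and Mmp12 like Pgf (0.785), Il22ra2 (0.740), Alpk2 (0.727), Cxcl16 (0.716) and Rapgef2 (0.705). Timp2 was most like Col15a1 (0.870), Tns1 (0.866), Pdpn (0.853), Sntb2 (0.853) and Mmp2 (0.851), and Adamdec1 like Meis1 (0.866), Col15a1 (0.837), Igf1 (0.837), Mmp2 (0.836) and Hgf (0.835). Among the members themselves the closest pairs were Timp2 with Adamdec1 (r = 0.806) and Mmp9 with Mmp8 (0.751).

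GF and SPF colon were compared to ask whether the microbiota bears on these genes. edgeR's quasi-likelihood test on UMIs summed per library and class, with 2 GF, 2 SPF and 2 small intestine libraries in 1 fit, called no member in resident macrophage-like, dendritic cell-like or neutrophil-like cells at an adjusted p under 0.05 (Benjamini-Hochberg over all genes). It called 0 of 8425, 0 of 10885 and 0 of 2705 genes tested, a background of 0% in each, with 248, 607 and 91 genes at an unadjusted p under 0.05 and 2, 33 and 1 genes called by DESeq2. Monocyte-like cells were not tested, since GF colon 1 held 17 of them. Among members with at least 30 UMIs the largest difference was Mmp8 in neutrophil-like cells. It was 556 and 267 CPM in GF colon, against 165 and 98.2 in SPF colon, a log2 fold change of 1.64 ± 0.53 (SE) with a 95% interval of 0.48 to 2.79, higher in both GF libraries, and it did not pass (adjusted p = 0.834, edgeR). Mmp8, Mmp9 and Timp2 were higher in both GF than in both SPF colon libraries in these cells, as were 10.8% of 3389 genes, and 18.4% were lower. Mmp9 in the same cells had a log2 fold change of 0.37 ± 0.37 (SE, adjusted p = 0.9999, edgeR). Beside this, monocyte markers in neutrophil-like cells summed to 422 and 442 CPM in GF colon and 1185 and 547 in SPF colon, and neutrophil markers to 72496 and 72802 in GF colon and 39405 and 30148 in SPF colon, and their part was not tested.

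In resident macrophage-like cells the interval for Mmp13 was wide, with a log2 fold change of -0.66 ± 0.86 (SE) and a 95% interval of -2.59 to 1.27 (adjusted p = 0.9998, edgeR). Without SPF colon 2 it was 2.22 and without SPF colon 1 it was -1.56, so 1 control library decides its sign. Mmp14 had a log2 fold change of -0.20 ± 0.42 (SE, interval -1.15 to 0.75) and Mmp12 of 0.18 ± 0.58 (SE, interval -1.12 to 1.48), both with an adjusted p of 0.9998 in edgeR. Timp2 and Adamdec1 were higher in both GF than in both SPF colon libraries, with log2 fold changes of 0.55 ± 0.53 and 0.50 ± 0.56 (SE), and neither passed the test (adjusted p = 0.9998 each, edgeR). Of 8569 genes with at least 30 UMIs, 10.7% were higher in this way and 17.6% lower. In dendritic cell-like cells Mmp12 was at 49.5 and 144 CPM in GF colon, against 53.9 and 68.9 in SPF colon (log2 fold change 0.83 ± 0.43, SE, adjusted p = 0.965, edgeR). Mmp13 in dendritic cell-like cells, at 6.70 and 10.5 CPM in GF colon against 5.88 and 3.01 in SPF colon, was set beside 0 and 2.82 in B cell-like cells of GF colon and 0 and 7.75 in those of SPF colon. Where B cell-like cells had 0 UMIs, in GF colon 1 and SPF colon 1, 3 UMIs would have given 8.24 and 3.90. Mmp13 and Timp2 were higher in both GF libraries there, as were 8.03% of 10520 genes, while 29.2% were lower. Mmp9 had 20 UMIs in dendritic cell-like cells of these 4 libraries, too few for a fold. In eosinophil-like cells, where no fit was planned, Adamdec1 was higher in both GF than in both SPF colon libraries, as were 16.4% of 1879 genes, with 12.8% lower. In fibroblast-like cells the Adamdec1 groups overlapped, Timp2 was higher in both GF libraries (as were 13.2% of 8303 genes) and Mmp14 lower in both (as were 21% of genes). The gene lists examined were inhibitors, other Mmp genes, ADAM and ADAMTS proteases, and activators of pro-enzymes and the plasminogen system. Matrix genes and receptors and AP-1 and ETS factors were listed too. Since the fits of the 3 classes called 0 genes in all, no list could hold a called gene, and nothing is read from this. Of 7 inhibitors 0 were tested in resident macrophage-like and in neutrophil-like cells, and of 18 other Mmp genes 0 in neutrophil-like cells.

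**Figure D4:**
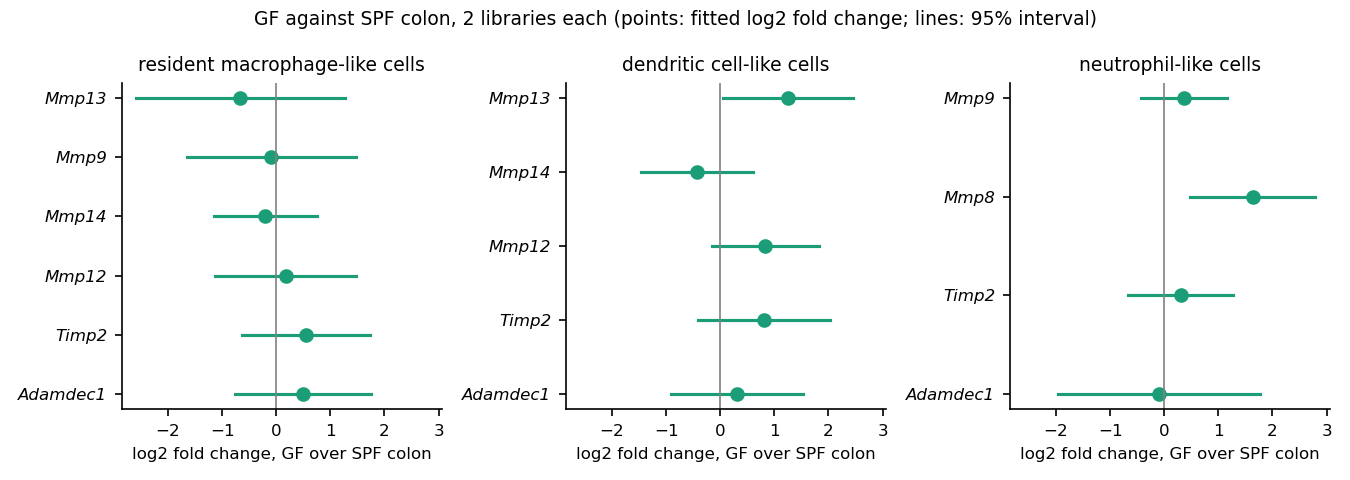
Fitted log2 fold change of GF over SPF colon (x axis) for each member tested with at least 30 UMIs (rows) in 3 classes (panels), with 95% intervals as lines, 2 libraries per group. Only Mmp13 in dendritic cell-like cells (1.26) and Mmp8 in neutrophil-like cells (1.64) have intervals that leave out 0, and no adjusted p is below 0.05.

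For the genes of the lists other than the members, the small intestine was tested against SPF colon in resident macrophage-like cells with the same fit, which shares its SPF libraries with the GF comparison. It called 0 of 8425 genes, with 697 at an unadjusted p under 0.05 and 48 called by DESeq2, a background of 0%. Among the lists, 9 genes had an unadjusted p under 0.05: 1 of 2 other Mmp genes tested, 3 of 9 ADAM and ADAMTS proteases, 2 of 6 activators, 3 of 15 matrix genes and 0 of 14 AP-1 and ETS factors. These were Adam33, Adam19 and Plau with positive and Mmp19, Adam8, Serpinb2, Fn1, Dcn and Tgfbi with negative log2 fold changes, and no adjusted p was below 0.321 (edgeR). Fn1 is among the monocyte and Dcn among the fibroblast gate genes. The part of the gate and of RNA from those cells in their differences was not tested. The medians of the log2 fold change were -0.93, -0.01, -0.41, -0.35 and 0.55, beside -0.01 over all genes tested.

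Resident macrophages of the gut hold a long-lived subset that carries Cd163, Lyve1, Folr2 or Timd4, and this subset was compared with the other resident macrophage-like cells of the same library to ask whether the members differ within the class. Cells with at least 1 UMI of these 4 genes numbered 42 and 18 in GF colon, 7 after antibiotics, 7 in Nlrc4-deficient DSS colon, 6 in DSS colon, 65 and 379 in small intestine, and 30 and 10 in SPF colon. Libraries with at least 20 cells on both sides, which were GF colon 1, both small intestine libraries and SPF colon 1, entered an edgeR fit with the library as a block. Of 8264 genes, 246 were higher and 289 lower in Cd163-type cells, a background of 2.98% higher, 3.5% lower and 6.47% in all. Among the 6 members tested, Timp2 and Mmp9 were higher and Mmp12 and Mmp14 were lower, while Mmp13 and Adamdec1 did not pass. In GF colon 1, small intestine 1 and 2 and SPF colon 1, monocyte markers summed to 665, 141, 560 and 1172 CPM in Cd163-type cells, against 410, 771, 767 and 1568 in the others. Neutrophil markers summed to 180.1, 123, 127 and 353 CPM in Cd163-type cells, against 149, 115, 103 and 270.1 in the others, and the part of either in the members' differences was not tested.

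Mmp12 had the largest difference. Its level in Cd163-type cells was 84.5 CPM in GF colon 1, 136 and 71.1 in small intestine and 18.9 in SPF colon 1, against 259, 271, 275 and 149 in the other cells of the same libraries. The log2 fold change was -1.75 ± 0.20 (SE, n = 4 libraries, adjusted p = 8.92e-06, edgeR), and the direction held in 8 of 9 libraries. The exception was SPF colon 2, with 10 Cd163-type cells, at 1064 against 434. Over 7354 genes with at least 30 UMIs in the subset, 6.31% were lower in at least 8 of 9 libraries and 1.78% in all 9.

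Timp2 was higher in Cd163-type cells of 9 of 9 libraries, as were 1.18% of 7354 genes, with 5.77% higher in at least 8. It was 254 CPM in Cd163-type cells of GF colon 1, 10.7 and 85.7 in those of small intestine and 164 in those of SPF colon 1, against 103.9, 10.4, 29.1 and 81.9 in the other cells. In small intestine 1 this rested on 4 and 12 UMIs. The log2 fold change was 1.13 ± 0.20 (SE, n = 4 libraries, adjusted p = 0.000941, edgeR). Without small intestine 2, which held 379 of the Cd163-type cells, it was 0.93 with an adjusted p of 0.104. Fibroblast markers summed to 62.5, 5.33, 9.52 and 50.4 CPM in the Cd163-type cells of these 4 libraries, against 21.6, 6.95, 8.31 and 26.6 in the others. Endothelial markers summed to 51.5, 178.6, 34.2 and 75.6 CPM, against 71.4, 77.3, 43.4 and 48.6. The gate gene Lyve1 was also among the top genes of endothelial cell-like cells. The part of either marker list in the Timp2 difference was not tested.

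Mmp9 was at 36.8 CPM in Cd163-type cells of GF colon 1, 1349 and 561 in those of small intestine and 246 in those of SPF colon 1, against 33.5, 690.5, 287 and 19.8 in the other cells. The log2 fold change was 1.24 ± 0.28 (SE, n = 4 libraries, adjusted p = 0.00867, edgeR), and it was higher in 6 of 9 libraries. In GF colon 2, Nlrc4-deficient DSS colon and SPF colon 2 the Cd163-type cells had 0 Mmp9 UMIs, where 3 UMIs would have given 16.6, 75.3 and 26.2 CPM. Without small intestine 2 the adjusted p was 0.104, and DESeq2 gave 0.395. Mmp14 was at 198 CPM in Cd163-type cells of GF colon 1, 725 and 156 in those of small intestine and 460.1 in those of SPF colon 1, against 341, 708, 374 and 527 in the others. Its log2 fold change was -0.65 ± 0.18 (SE, n = 4 libraries, adjusted p = 0.0304, edgeR), lower in 8 of 9 libraries, and the call was lost without any of GF colon 1, SPF colon 1 or small intestine 2 (adjusted p 0.130, 0.0582 and 0.459) and with DESeq2 (0.120).

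Mmp13 was at 540.3 CPM in Cd163-type cells of GF colon 1, 1330.3 and 477 in those of small intestine and 113 in those of SPF colon 1, against 1041, 1008, 619 and 185 in the others. Its log2 fold change of -0.44 ± 0.18 (SE, 95% interval -0.82 to -0.07) did not pass (adjusted p = 0.178, edgeR), and it was lower in 6 of 9 libraries. With 1 library left out the log2 fold change ran from -0.76 to -0.22. The -0.76 (adjusted p = 0.00773, edgeR) came without small intestine 1, the library of the 4 where Mmp13 was higher in Cd163-type cells. Adamdec1 had a log2 fold change of 0.38 ± 0.26 (SE, adjusted p = 0.490, edgeR), with 1328 against 466 CPM in small intestine 1 and 109.8 against 190.0 in small intestine 2. It was higher in Cd163-type cells of 6 of 9 libraries. In the libraries tested the median depth was 4252 to 5643 UMIs in Cd163-type cells and 4173 to 5358.5 in the others.

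Other genes of the pathway differed too. Of 2 other Mmp genes tested, Mmp19, a metalloproteinase of macrophages and stroma, was lower (log2 fold change -1.53, adjusted p = 0.000101, edgeR). Of 9 ADAM and ADAMTS proteases, Adam33 (1.56, adjusted p = 0.0138) and Adam9 (0.67, adjusted p = 0.0422) were higher and none was lower. Of the activators, none was higher, and Plaur, the urokinase receptor (-0.76, adjusted p = 0.0171), and Furin, a convertase that cuts the Mmp14 pro-form (-0.61, adjusted p = 0.0265), were lower. Of 15 matrix genes and receptors, Mrc1, a receptor that takes up collagen (1.36, adjusted p = 9.08e-06), and the scavenger receptor Cd36 (1.41, adjusted p = 4.89e-05) were higher, and Spp1 (-2.27, adjusted p = 0.00111), Tgfbi (-0.59, adjusted p = 0.0169) and the hyaluronan receptor Cd44 (-0.50, adjusted p = 0.0246) were lower. Of 14 AP-1 and ETS factors 6 were higher and none was lower, with Maf (1.34, adjusted p = 4.46e-05), Jun (1.42, adjusted p = 0.000129), Etv1 (1.75, adjusted p = 0.004) and Etv5 (0.87, adjusted p = 0.0146) named by the smallest p, beside Jund (0.54, adjusted p = 0.016) and Fos (0.54, adjusted p = 0.0239). The list medians were -0.80, 0.30, -0.51, -0.12 and 0.28, beside 0.0004 over all genes tested. No inhibitor other than Timp2 had enough UMIs to be tested. Over all 9 libraries the direction held in 9 for Mrc1, Maf and Jund, and in 8 for Cd36, Spp1, Jun, Etv1 and Etv5. It held in 7 for Plaur, Tgfbi, Cd44 and Fos, and in only 6 for Mmp19, Adam33, Adam9 and Furin.

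**Figure D5:**
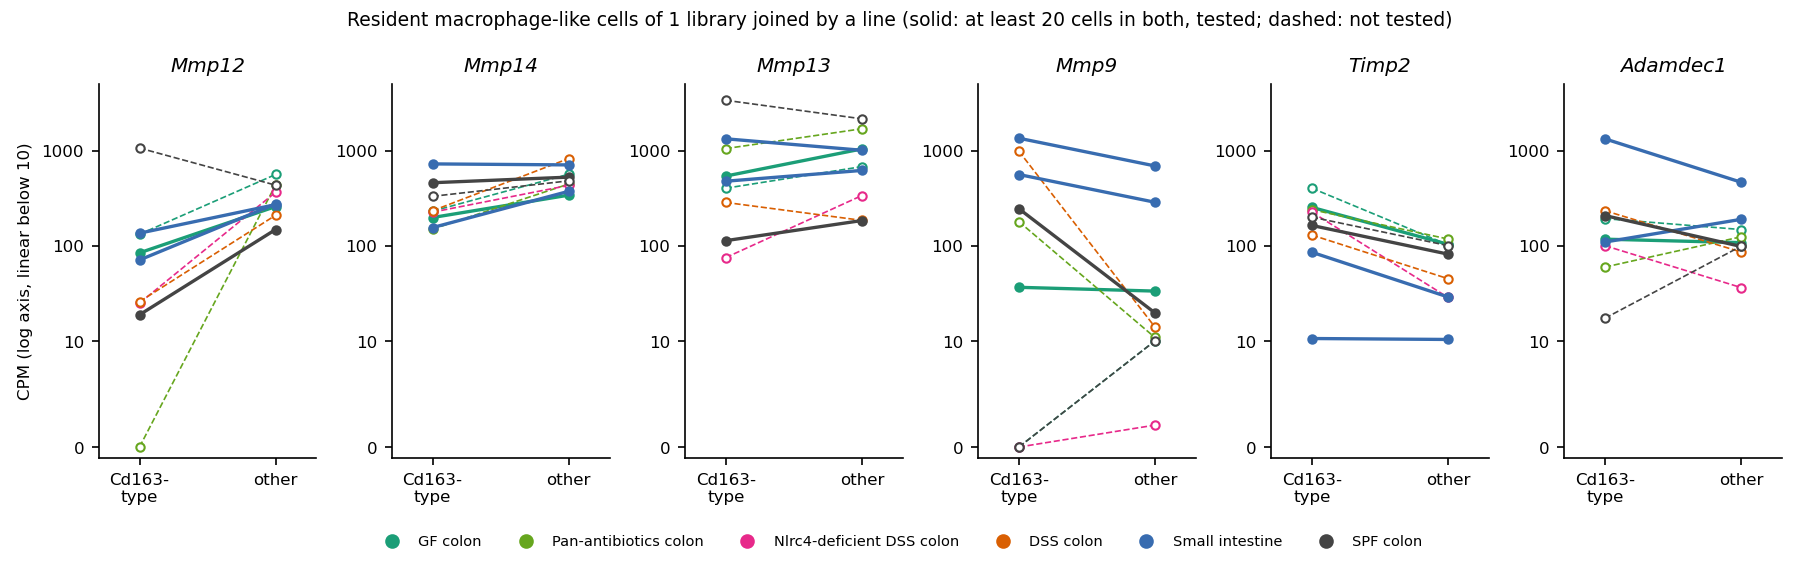
CPM (y axis, log scale that is linear below 10) of 6 members in Cd163-type (left) and other (right) resident macrophage-like cells, with the 2 values of a library joined by a line coloured by group, solid for the 4 libraries tested and dashed for the 5 with fewer than 20 Cd163-type cells. Timp2 lines run down to the right in 9 of 9 libraries and Mmp12 lines run up in 8 of 9, with SPF colon 2 (1064 against 434) the exception.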

How the data were processed

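The 9 libraries were made with the 10x 3' version 3 kit from CD11b+ lamina propria cells. The authors aligned and counted reads with Cell Ranger (the deposited matrix headers give version 3.0.2, the labels STAR 2.5.1b and mm10) and deposited filtered UMI counts per gene and cell, with no normalization. The members and gene lists were chosen with earlier results of these data known. Cells with at most 15% mitochondrial UMIs and at least 200 genes were kept, 31759 in all. A cell joined a class when its mean z-score over the class's markers was at least 0.5, led the next by 0.3 and rested on 2 detected markers, which left 6704 cells unassigned. Scrublet called 133 cells (0.419%), too few to have worked, so doublets were kept.

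UMIs were summed per library and class (at least 20 cells per library) and tested with edgeR 4.0.16 (TMM, filterByExpr, Benjamini-Hochberg, adjusted p under 0.05). Cells were not replicates, and replicate libraries may be technical, so p-values measure only the spread between libraries. Conditions with 1 library have no test. Intervals are 95% exact Poisson. For a count of 0 the level that 3 UMIs would give is stated, which lies below the upper limit of that interval. Thinning drew 1000 UMIs per cell. Named genes were all members, at most 4 others per list with the smallest p among called genes (all where 5 or fewer were called) and the 5 genes most like each member. The result of 1 list gene is not reported here. Alternatives were DESeq2 1.42.0, RLE scaling, no filter on low counts, stricter cells (10% and 500 genes), a stricter gate, joint Seurat 5.3.0 clusters, the replicate block, only the libraries compared, cells of at least 3000 UMIs and leaving out each library. Scripts were tested on simulated data.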

Additional observations from a re-analysis of the deposited data

How the results depend on the processing

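Counts of called genes moved with several settings. For GF against SPF colon it was 2 (DESeq2) and 63 (no filter on low counts) in resident macrophage-like cells, 33 and 141 in dendritic cell-like cells, and 1 and 18 in neutrophil-like cells. For small intestine against SPF colon it was 48 (DESeq2), 281 (no filter) and 6 (only the 4 libraries compared). Leaving out each library in turn gave 0 to 1, 0 to 4, 0 to 23 and 0 to 8 calls in these 4 comparisons. The Cd163-type comparison, with 535 calls, gave 249 with DESeq2, 350 with joint clusters, 8 with no library block, and 105 to 526 with 1 library left out, the lowest without small intestine 2. With no library block Mmp12, Timp2, Mmp9 and Mmp14 were not called (adjusted p 0.103, 0.657, 0.752 and 0.748, edgeR), and Mmp14 was not called in cells of at least 3000 UMIs (0.0802). Mmp13 was called with no filter on low counts (0.0405). The cause was not tested.

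With joint clusters the mean level in SPF colon was 136.2 CPM for Timp2 and 136.2 for Adamdec1 in resident macrophage-like cells (100.3 and 97.4 by the gate), and 505.0 for Adamdec1 in eosinophil-like cells (318.5 by the gate). The stricter gate gave 147.8 for the last and 107.8 for Mmp12 in type 2 dendritic cell-like cells (86.1 by the gate). Thinned to 1000 UMIs, a UMI was found in 23.08% (Mmp13) and 10.05% (Mmp12) of resident macrophage-like, 52.02% (Mmp9) and 20.59% (Mmp8) of neutrophil-like, and 46.97% (Mmp14), 55.45% (Timp2) and 64.14% (Adamdec1) of fibroblast-like cells. No called result reversed its direction under these alternatives, while the uncalled GF against SPF differences of Mmp13, Mmp9, Mmp14 and Mmp12 in resident macrophage-like cells, Mmp12 in dendritic cell-like cells and Adamdec1 in dendritic cell-like and neutrophil-like cells, and that of Adamdec1 in Cd163-type cells, changed sign under at least 1 of them. The groups share replicate numbers 1 and 2, which the labels tie to no batch, so the libraries were not taken as paired. Same-numbered deviations correlated at 0.19, 0.33 and 0.40 between SPF and GF colon in resident macrophage-like, dendritic cell-like and neutrophil-like cells, and at -0.10 to 0.11 between either and small intestine. With the replicate block the calls were 18 in dendritic cell-like, 1 in neutrophil-like and 16 in small intestine against SPF resident macrophage-like cells. The GF comparison in monocyte-like cells and the removal of called doublets were not run. Depth limits the 2 libraries with under 10 eosinophil-like cells and the small Cd163-type groups.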
